A study of Homo sapiens with 2 samples.

Results

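The 57 genes described here lie on the long arm of chromosome 11, between USP35 and TRIM29, and most had a lower intensity in VHL-restored than in 786-O cells. They were chosen by the difference between these same arrays, as genes in stretches of neighbours that were lower together, so every difference given for them is a description and carries no test. A probe set was assigned to a member when the platform annotation gave it that gene alone, which yielded 166 of 54613 probe sets, and another 6 probe sets shared with further genes were not used. All 57 were measured, out of 13291 measured genes in all. A gene is represented by its probe set with the highest mean log2 intensity, and counted as measured when the higher of its values exceeded 22.3, the pooled median of all values.

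The compared groups were the VHL-restored cells, a line derived from 786-O that carries a working VHL gene, and 786-O, a human renal cell carcinoma line whose VHL is mutated. Each line gave 1 array of total RNA, labelled with biotin, and the study set out to find genes whose expression depends on functional VHL. How the VHL allele was introduced, and whether the derived line is a clone or a pool, is not given in the sources used here. The lines share the 786-O background, and any change that arose while the line was derived cannot be told apart from an effect of VHL in this design.

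VHL protein recognises HIF alpha subunits and, as part of a ubiquitin ligase, marks them for destruction. The genes of this stretch of chromosome 11 share their position rather than a pathway. They encode parts of the DNA damage response, chromatin regulators, signalling adaptors, enzymes of protein glycosylation, mitochondrial enzymes and proteins of adhesion and the cytoskeleton. Many act as 1 subunit of a complex whose other subunits are mostly encoded on other chromosomes.

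Intensities had a median of 22.6 in VHL-restored cells and 21.97 in 786-O over all probe sets. A single array stood for each line, so no replicate error, test or p-value could be had, and precision is limited by the number of arrays. The only spread that could be measured was that between probe sets of a gene, with an SD of 0.33 log2 units over 6436 genes. All 9 kidney epithelial and renal carcinoma markers were above the floor, with PAX8, a kidney lineage transcription factor, at 1068 in VHL-restored cells and 1521 in 786-O. The 3 leukocyte markers with a probe set were below it on both arrays, and their sum was 45.8 in VHL-restored cells and 44.7 in 786-O. Above it on at least 1 array lay 3 of 4 endothelial markers, and the sum over the 4 was 95.2 in VHL-restored cells and 74.5 in 786-O. These 3 were close to the floor, from 26.7 to 28.9 in VHL-restored cells, and in 786-O only TEK, at 23.6, passed it. Fibroblast and pericyte markers above it on at least 1 array were 2 of 5, and the sum over the 5 was 164 in VHL-restored cells and 143 in 786-O. These were COL1A1, at 79.9 in VHL-restored cells and 94.8 in 786-O, and LUM, at 37.1 in VHL-restored cells and 5.64 in 786-O. The part of such cells in any result was not tested. EPAS1, which encodes HIF-2 alpha, was at 799 in VHL-restored cells and 367 in 786-O. HIF1A was at 5.69 in VHL-restored cells and 6.37 in 786-O, below the floor. VHL was at 15.96 in VHL-restored cells and 28.9 in 786-O on 1 probe set, and at 7.96 in VHL-restored cells and 6.32 in 786-O on the other, levels at or near background that do not check the labels, so every direction rests on the labels of the arrays.

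Each difference is the log2 of the VHL-restored value plus 16, less the same for the 786-O value, with negative values lower in VHL-restored cells, and folds are on this scale, which understates differences of dim genes. Of the 57 members, 54 were lower in VHL-restored cells and 3 were higher, beside 41.8% of all measured genes that were lower. At least 2-fold lower were 11 members, beside 2.18% of all measured genes, and none was at least 2-fold higher, beside 1.54%. At least 1.5-fold lower were 25 members, beside 6.55%. These shares follow from the way the members were chosen. In RNA of a whole culture, fewer cells of a kind and less RNA per cell cannot be told apart. The median difference was -0.46, against 0.05 over all measured genes, and 39 members were lower by more than the SD between probe sets, beside 14.8% of all measured genes. The 3 higher members were ENDOD1, FAM76B and ME3.

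**Figure D1:**
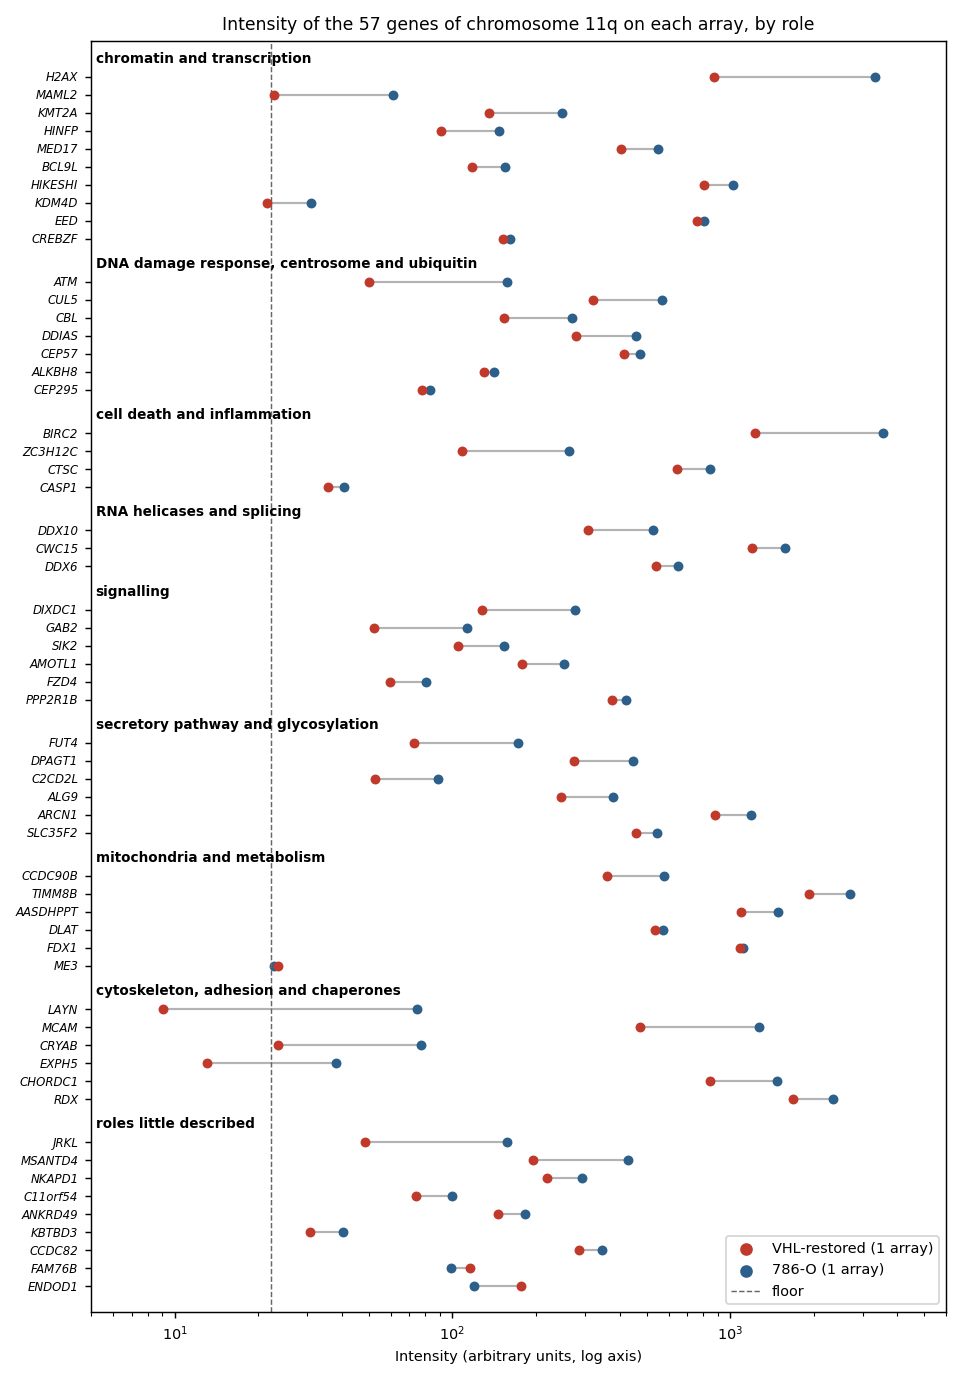
Intensity of each member in VHL-restored cells (red) and 786-O (blue), in arbitrary units on a log axis, grouped by role and ordered by difference within a role; the dashed line is the floor of 22.3. The red point lies left of the blue one for 54 of the 57 genes, and 3 genes (LAYN, EXPH5 and KDM4D) are left of the floor in VHL-restored cells.

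Promoter sequences of 4 members are given because they span the range of the differences: H2AX was the lowest member, ENDOD1 the highest, and JRKL and ATM were the lowest members whose start lies within 1000 bases of that of a measured gene on the opposite strand. Each runs from 250 bases before to 50 bases after the start of the gene, 5′ to 3′ on the gene's strand, from RefSeq on GRCh38.p14. Capitals mark matches on either strand to ACGTG or GCGTG, which hold the core of the hypoxia response element, to the box CCAAT, to the GC box GGGCGG, to the ETS motif CCGGAAG and to TATAAA. Overlapping matches merge into 1 run of capitals.
H2AX, chr11:119095416-119095715, minus strand: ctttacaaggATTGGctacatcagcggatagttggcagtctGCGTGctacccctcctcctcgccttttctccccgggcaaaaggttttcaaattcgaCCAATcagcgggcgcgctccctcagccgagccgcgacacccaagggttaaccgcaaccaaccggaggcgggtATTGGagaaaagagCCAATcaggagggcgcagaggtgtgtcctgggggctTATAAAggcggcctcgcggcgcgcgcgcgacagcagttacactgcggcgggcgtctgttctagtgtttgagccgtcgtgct
JRKL, chr11:96389763-96390062, plus strand: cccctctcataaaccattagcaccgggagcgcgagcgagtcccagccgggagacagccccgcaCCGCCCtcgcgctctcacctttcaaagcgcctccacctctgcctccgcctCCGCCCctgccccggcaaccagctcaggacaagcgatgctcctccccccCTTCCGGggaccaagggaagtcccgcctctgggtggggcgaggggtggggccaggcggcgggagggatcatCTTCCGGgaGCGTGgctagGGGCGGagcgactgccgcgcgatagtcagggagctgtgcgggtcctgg
ATM, chr11:108222817-108223116, plus strand: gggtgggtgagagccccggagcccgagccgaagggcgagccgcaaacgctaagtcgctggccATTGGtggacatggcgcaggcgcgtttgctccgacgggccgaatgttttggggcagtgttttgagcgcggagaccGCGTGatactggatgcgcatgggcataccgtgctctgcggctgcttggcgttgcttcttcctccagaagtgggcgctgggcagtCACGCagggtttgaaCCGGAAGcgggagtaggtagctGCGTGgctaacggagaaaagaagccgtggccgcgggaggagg
ENDOD1, chr11:95089596-95089895, plus strand: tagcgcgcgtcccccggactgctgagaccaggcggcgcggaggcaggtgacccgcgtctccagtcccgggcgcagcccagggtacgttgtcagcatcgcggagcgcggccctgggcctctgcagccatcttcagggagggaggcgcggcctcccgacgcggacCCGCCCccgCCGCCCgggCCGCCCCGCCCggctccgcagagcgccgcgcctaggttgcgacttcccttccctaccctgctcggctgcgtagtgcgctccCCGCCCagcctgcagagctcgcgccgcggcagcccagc
The H2AX window holds 4 CCAAT matches and 1 TATAAA match, and the ENDOD1 window 5 GC boxes and no match to the hypoxia cores.

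A promoter of RefSeq was matched for 51 of the 57 members. ACGTG or GCGTG occurred in 30 of these 51 (58.8%), against 61.7% of the promoters of 10676 measured genes and 48.4% of all 27305 promoters in the table. CCAAT occurred in 47.1% of the members and 36.03% of the measured genes, and CCGGAAG in 31.4% and 18.1%. GGGCGG occurred in 68.6% and 68.1%, and TATAAA in 9.80% and 6.004%. The median GC content of these windows was 61.3% in members, 61% in the other measured genes of the interval and 65% in all measured genes. A match describes these letters only and not the binding of a factor.

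Genes of the response to DNA double-strand breaks held the lowest member and another of the 6 lowest. H2AX, a histone variant that is phosphorylated around breaks, had an intensity of 874 in VHL-restored cells and 3332 in 786-O, a 3.76-fold lower value. Only 0.376% of measured genes were as low or lower. Its other probe sets above the floor differed by -1.38 and -0.50. The annotated H2AX and DPAGT1 genes overlap, as do TIMM8B and NKAPD1, SIK2 and PPP2R1B, and 6 members with a measured gene outside the set (GAB2, FZD4, ARCN1, CEP295, ANKRD49 and BCL9L). Whether their probe sets divide the signal was not tested. ATM, the kinase that phosphorylates H2AX and is mutated in ataxia telangiectasia, was at 49.9 in VHL-restored cells and 157 in 786-O, 2.62-fold lower. Its other 2 probe sets above the floor differed by -1.32 and -0.75, and ATM was under 2-fold, at -0.75, when probe sets with a suffix for shared or similar transcripts were left out. DDIAS, which restrains apoptosis after DNA damage, was at 278 in VHL-restored cells and 460 in 786-O, with a difference of -0.69. MRE11, a nuclease of the complex that brings ATM to breaks, lies in the same interval without being a member and was named after its values were seen. It was at 163 in VHL-restored cells and 262 in 786-O, with a difference of -0.64.

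The partners of ATM and H2AX encoded outside the interval are read beside all measured genes, of which 56.8% were higher in VHL-restored cells. Of 10 measured genes of the pathway, 8 were higher and 2 lower, none was 2-fold apart, and the median was 0.21. RAD50, which forms a complex with MRE11, was at 439 in VHL-restored cells and 277 in 786-O, a difference of 0.63, and the ubiquitin ligase gene RNF168 differed by 0.46.

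The same role group held ubiquitin ligase and centrosome genes. CUL5, a cullin that scaffolds ligases with elongins B and C and SOCS box proteins, was at 320 in VHL-restored cells and 570 in 786-O. Its difference was -0.80, and its other probe sets ranged from -0.66 to 0.12. CBL, a ligase that ends signalling of receptor tyrosine kinases, was at 153 in VHL-restored cells and 270 in 786-O, with a difference of -0.76 and others at -0.71 and 0.09. The centrosome genes CEP57 and CEP295 differed by -0.18 and -0.08 on their representing probe sets, and their other probe sets reached -0.91 and -0.80. ALKBH8, a tRNA-modifying enzyme, differed by -0.10, with another probe set at -0.50. The 9 measured partners of CUL5 had a median of 0.07, with SOCS2 at 0.72.

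All 10 chromatin and transcription members, H2AX among them, were lower in VHL-restored cells, with a median of -0.39. KMT2A, a histone H3 lysine methyltransferase that keeps developmental genes active, was at 136 in VHL-restored cells and 248 in 786-O, a difference of -0.80. Its other 4 probe sets above the floor were also negative, from -0.46 to -0.03. HINFP, a transcription factor of histone H4 genes, was at 91.2 in VHL-restored cells and 147 in 786-O, a difference of -0.61. MED17, a subunit of the head of Mediator, was at 405 in VHL-restored cells and 551 in 786-O, a difference of -0.43. MAML2, a Notch coactivator, was at 22.8 in VHL-restored cells and 60.96 in 786-O, with a difference of -0.99 just short of 2-fold. BCL9L, a coactivator of beta-catenin, differed by -0.35 and the carrier of HSP70 into the nucleus, HIKESHI, by -0.34.

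The other 3 chromatin and transcription members lay within the SD between probe sets of 0. EED, the subunit of Polycomb complex PRC2 that binds methylated histone H3, was at 762 in VHL-restored cells and 807 in 786-O, a difference of -0.08. CREBZF, a leucine zipper factor, differed by -0.07, while its other 4 probe sets above the floor ranged from -0.73 to -0.20. KDM4D, a demethylase of histone H3, was at 21.5 in VHL-restored cells, below the floor, and 30.9 in 786-O, at least 1.22-fold lower.

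Partners of these complexes outside the interval are again read beside the 56.8% of all measured genes that were higher in VHL-restored cells. Of 9 PRC2 partners of EED 8 were higher, with RBBP4 at 0.75 and PHF19 at -0.50 and a median of 0.18. Of 8 genes listed as KMT2A partners 7 were higher, with RBBP5 at 0.33 and a median of 0.17. That list includes WDR82, at 0.53, which is a subunit of related methyltransferase complexes and not of the KMT2A complex. Of 16 measured Mediator subunits 11 were higher and 5 lower, with MED11 at 0.70 and MED18 at -0.76 and a median of 0.17. The 8 Notch partners of MAML2 had a median of 0.07, and HEY1, a Notch target gene, was at 125.4 in VHL-restored cells and 49.1 in 786-O, a difference of 1.12. HES1, another Notch target gene, went the other way, at 134 in VHL-restored cells and 153 in 786-O, a difference of -0.17.

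In cell death and inflammation, BIRC2 stood lowest of 4 members. It encodes cIAP1, a ubiquitin ligase of TNF receptor signalling that keeps the kinase NIK at a low level, and was at 1231 in VHL-restored cells and 3552 in 786-O. The fold was 2.86 lower, on the gene's only probe set. ZC3H12C, of the Regnase family of RNA-degrading proteins, was at 108 in VHL-restored cells and 262 in 786-O, 2.23-fold lower. CTSC, a lysosomal peptidase that activates serine proteases of immune cells, was at 642 in VHL-restored cells and 843 in 786-O, and its 4 probe sets ranged from -0.48 to -0.33. CASP1, the inflammasome protease, was at 35.6 in VHL-restored cells and 40.8 in 786-O and differed by -0.14, with another probe set at 0.22. MAP3K14, which encodes NIK and lies outside the interval, was at 421 in VHL-restored cells and 143 in 786-O, a difference of 1.46. This is RNA, whereas cIAP1 acts on NIK protein, which was not measured, and a link to BIRC2 was not tested. The other 7 measured partners of BIRC2 ranged from -0.12 to 0.26.

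The cytoskeletal, adhesion and chaperone members were 6 genes, of which LAYN and EXPH5 passed the floor only through 786-O, where they are high. LAYN, a hyaluronan receptor, was at 9.10 in VHL-restored cells, below the floor, and 74.8 in 786-O, at least 2.37-fold lower. Both its other probe sets were below the floor on both arrays, and the median over its 3 probe sets was 0.13. MCAM, an adhesion molecule of the immunoglobulin superfamily also called CD146, was at 472 in VHL-restored cells and 1268 in 786-O, 2.63-fold lower. Its other probe set, at 39.9 in VHL-restored cells and 39.2 in 786-O, differed by 0.02. CRYAB, a small heat shock protein, was at 23.5 in VHL-restored cells and 76.9 in 786-O, 2.35-fold lower.

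The remaining 3 genes of this group were under 2-fold. EXPH5, an effector of RAB27 GTPases, was at 13.1 in VHL-restored cells, below the floor, and 38.1 in 786-O, at least 1.41-fold lower. CHORDC1, a partner of HSP90, was at 843 in VHL-restored cells and 1472 in 786-O, a difference of -0.79. RDX encodes radixin, which links actin to the membrane, and was at 1685 in VHL-restored cells and 2340 in 786-O, a difference of -0.47. Of 4 measured relatives and partners of RDX, NF2 at 0.21 and EZR at -0.14 differed most, and the median was 0.00. The direction of LAYN, EXPH5 and KDM4D follows from the filter.

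Signalling members were all lower in VHL-restored cells, with a median of -0.48 over 6. DIXDC1, a positive regulator of Wnt signalling that binds Dishevelled, was at 128 in VHL-restored cells and 277 in 786-O, 2.03-fold lower, but its other probe set above the floor differed by -0.10. GAB2, a docking protein of receptor tyrosine kinases, was at 52.1 in VHL-restored cells and 113 in 786-O, a difference of -0.92. The kinase gene SIK2 was at 104 in VHL-restored cells and 154 in 786-O, a difference of -0.50, with others at -0.40 and 0.03. AMOTL1, an angiomotin relative that binds YAP at cell junctions, was at 178 in VHL-restored cells and 251 in 786-O, a difference of -0.46, with 3 others from -0.26 to -0.05. FZD4, a receptor for Wnt and norrin, differed by -0.36 and the PP2A scaffold gene PPP2R1B by -0.16, with its other 3 probe sets from -0.35 to 0.04.

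The partners of these signalling genes went both ways. The 10 measured Wnt partners had a median of 0.00, with TSPAN12, a coreceptor subunit of FZD4, lowest at -0.87. The 9 CBL and GAB2 partners had a median of -0.18 with SH3KBP1 at 0.53, and the 9 PP2A partners had a median of 0.04 with PPP2R5C at 0.79. The 8 Hippo partners of AMOTL1 had a median of -0.32, with TEAD1, itself on chromosome 11, at -0.59 and LATS1 at -0.57.

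In the secretory pathway, FUT4, a fucosyltransferase that makes the Lewis x antigen, was at 72.8 in VHL-restored cells and 172 in 786-O, 2.12-fold lower, and its other probe set differed by -0.95. DPAGT1, which carries out the first step of N-glycan assembly, was at 275 in VHL-restored cells and 448 in 786-O, a difference of -0.67. ALG9, a mannosyltransferase of the same pathway, was at 246 in VHL-restored cells and 378 in 786-O and differed by -0.59 and -0.75 on its 2 probe sets. C2CD2L, a lipid transfer protein of contacts between ER and plasma membrane, was at 52.5 in VHL-restored cells and 88.4 in 786-O, a difference of -0.61. ARCN1, the delta subunit of the COPI coat, was at 882 in VHL-restored cells and 1190 in 786-O, a difference of -0.43. The transporter gene SLC35F2 differed by -0.24. Of 19 measured N-glycan partners 10 were lower and 9 higher, with a median of -0.02 and extremes at STT3A, -1.75, and DPM3, 0.90. STT3A, a catalytic subunit of oligosaccharyltransferase, also lies on chromosome 11, beyond TRIM29. The 9 COPI partners had a median of -0.06, with COPG1 at -0.76.

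None of the 6 mitochondrial and metabolic members was at least 2-fold apart, and their median was -0.27. CCDC90B, a mitochondrial membrane protein, was at 360 in VHL-restored cells and 578 in 786-O, a difference of -0.66 with another probe set at -0.26. TIMM8B, a carrier in the intermembrane space, was at 1914 in VHL-restored cells and 2695 in 786-O, a difference of -0.49 with another at -0.10. AASDHPPT, which attaches phosphopantetheine to carrier proteins, was at 1091 in VHL-restored cells and 1488 in 786-O, a difference of -0.44. DLAT, the acetyltransferase of pyruvate dehydrogenase, differed by -0.10 on its representing probe set and by -0.32 and -0.65 on the others. FDX1, a ferredoxin that feeds electrons to mitochondrial enzymes, differed by -0.03, with others at -0.47 and -0.50. ME3, a mitochondrial malic enzyme, was at 23.6 in VHL-restored cells and 22.8 in 786-O, close to the floor. The 8 measured partners of DLAT had a median of 0.19, with DLD at 0.42, and the 5 of FDX1 a median of 0.36, with NFS1 at 0.82. The 5 measured TIM partners of TIMM8B had a median of -0.13, and 4 were lower, beside 41.8% of all measured genes, with TIMM13 at -0.23. The higher one was TIMM22, which is not a small TIM, at 0.42.

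RNA helicase and splicing genes were each lower in VHL-restored cells. DDX10, a helicase of ribosome assembly, was at 308 in VHL-restored cells and 529 in 786-O, a difference of -0.75. CWC15, a spliceosome protein, was at 1195 in VHL-restored cells and 1572 in 786-O, a difference of -0.39. DDX6, a helicase of P-bodies, was at 542 in VHL-restored cells and 650 in 786-O, a difference of -0.26. A second DDX6 probe set, singled out after its values were seen, was at 53.96 in VHL-restored cells and 577 in 786-O, a difference of -3.08. The 12 measured partners of DDX6 in mRNA decay had a median of 0.01, with CNOT1 at 0.47 and LSM14B at -0.46.

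Among 9 members whose roles are little described, JRKL was at 48.3 in VHL-restored cells and 157 in 786-O, 2.70-fold lower, and MSANTD4 at 195 in VHL-restored cells and 430 in 786-O, 2.12-fold lower. NKAPD1, C11orf54, ANKRD49, KBTBD3 and CCDC82 had differences from -0.40 to -0.26. The other 3 probe sets of NKAPD1 above the floor ranged from -0.50 to 0.14. ENDOD1, named for an endonuclease domain, was the highest member, at 177 in VHL-restored cells and 120 in 786-O, 1.42-fold higher, with its other probe set at 0.26. FAM76B was at 116 in VHL-restored cells and 99.2 in 786-O, a difference of 0.20, but its other 3 probe sets were negative, from -0.56 to -0.32. The values nearest to the 2-fold limit were those of ZC3H12C, FUT4, MSANTD4 and DIXDC1 on the inside, from -1.16 to -1.02, and MAML2, GAB2, EXPH5 and CUL5 on the outside, from -0.99 to -0.80.

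Of 36 members with several probe sets above the floor, 27 were negative on every one, 8 had both signs and 1, ENDOD1, was positive on both. Of the 65 further probe sets of members above the floor, 57 were negative (87.7%), beside 72.9% of 70 such probe sets of the other genes of the interval and 46.9% of 11116 over all measured genes. These probe sets come from the same arrays as the values that chose the members. The count of members at least 2-fold lower was 3 in place of 11 when a gene was taken as the median over all its probe sets, those below the floor included.

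**Figure D2:**
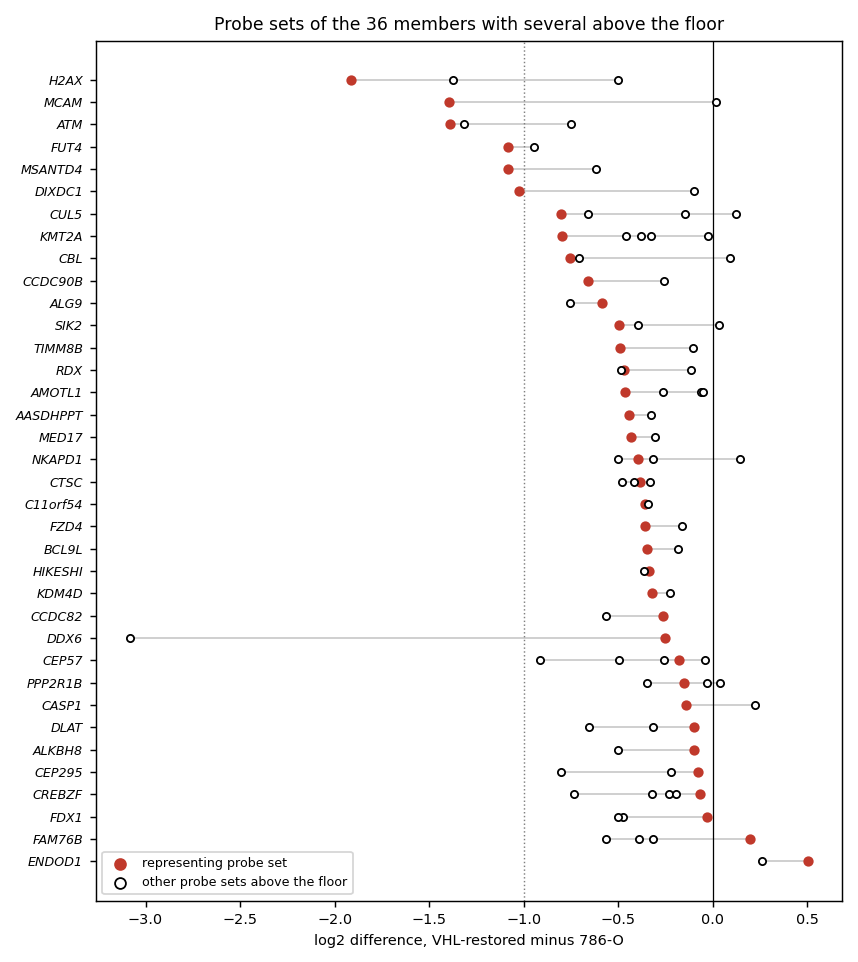
The log2 difference, VHL-restored minus 786-O, of each probe set above the floor for the 36 members with more than 1; red points are the representing probe sets, open circles the others, and the dotted line marks 2-fold lower. Most circles lie left of 0, DDX6 has a circle at -3.08 far from its red point at -0.26, and MCAM and CASP1 have circles right of 0.

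**Figure D3:**
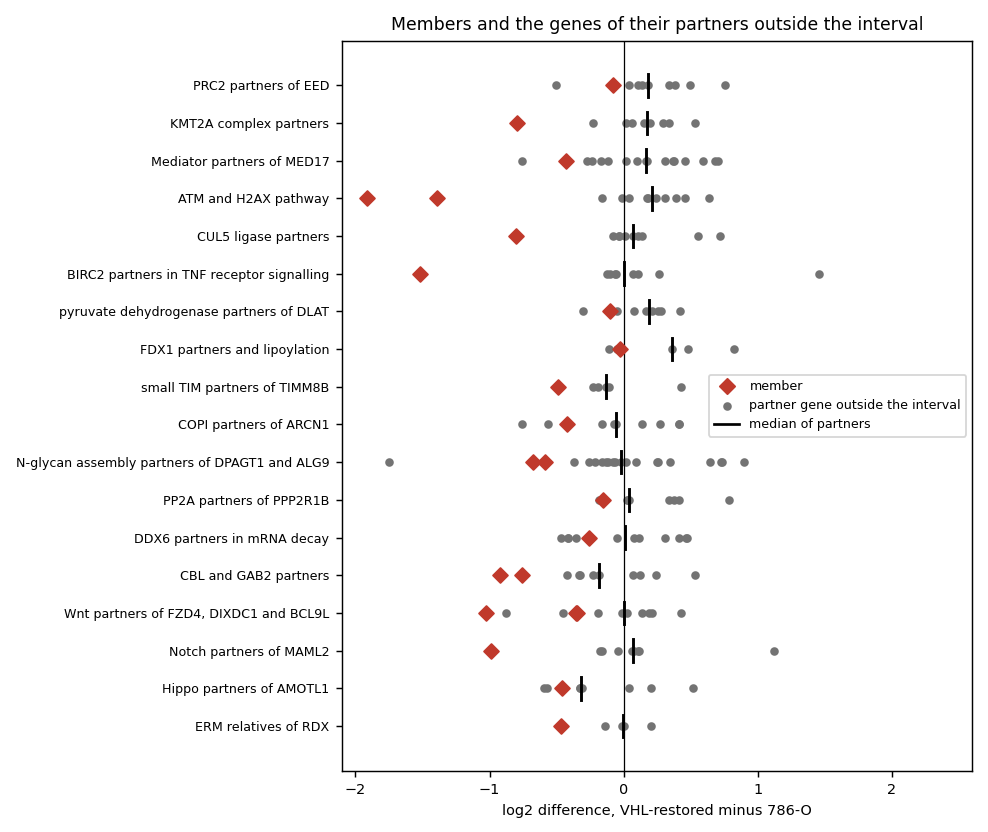
The log2 difference, VHL-restored minus 786-O, of members (red diamonds) and of measured genes of their partners outside the interval (grey points, black bar at the median), by complex or pathway. The medians of the partner lists lie between -0.32 and 0.36, and each member's diamond lies left of the median of its own list.

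Over all lists, 165 measured partner genes had a median of 0.07, with 67 lower (40.6%, beside 41.8% of all measured genes) and 98 higher, 1 at least 2-fold lower and 2 at least 2-fold higher. Without the 9 of them on chromosome 11, 156 partners had a median of 0.07 and none was 2-fold lower. The members' median was -0.46. The partner lists were written from known complexes and pathways, whereas the members were chosen by their differences, so the gap between these medians is a description only.

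The other genes of the interval are those left once the members had been chosen, so their values depend on that choice too. The annotation placed 709 genes between USP35 and TRIM29, 243 of them protein-coding, and 159 were measured, the 57 members and 102 others. Of the 102 others 68 were lower, 30 higher and 4 equal, with a median of -0.21. The share lower was 66.7%, beside 41.8% of all measured genes. At least 2-fold lower were 3 (2.94%), close to the 2.18% of all measured genes. None was 2-fold higher, beside 1.54% of all measured genes. The lowest was TAGLN, an actin-binding protein gene, at 31.6 in VHL-restored cells and 508 in 786-O, 11.01-fold lower with a difference of -3.46. Its other probe sets differed by -3.03 and 0.10. SYTL2, a RAB27 effector like EXPH5, differed by -1.32 and by -1.70 on another probe set, the proprotein convertase gene PCSK7 by -1.002 and RAB30-DT by -0.91. YAP1, the Hippo effector bound by AMOTL1, was at 531 in VHL-restored cells and 1002 in 786-O, a difference of -0.90 with others at -0.95 and -0.54, and PTS, an enzyme of tetrahydrobiopterin synthesis, differed by -0.89. The highest were the cytokine gene IL18 at 0.67, the collagenase gene MMP1 at 0.57, C11orf71 at 0.53, the sodium pump regulator FXYD2 at 0.45, NHERF4 at 0.31 and TMPRSS5 at 0.30. A further probe set of FXYD2 was at -0.39 and one of NHERF4 at -0.14. For MMP1, which 786-O had below the floor, the VHL-restored value was higher by at least 1.26-fold.

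Along the interval the values are given over members and other genes together, since the members were chosen by their differences. The counts lower are read beside the measured genes outside the interval, of which 41.4% were lower. From USP35 to JRKL the median was -0.40 over 48 genes, 41 of them lower. From there to TIMM8B it was -0.44 over 41 genes, 35 of them lower. From TIMM8B to TRIM29 it was -0.25 over 70 genes, 46 of them lower. From USP35 to JRKL the 24 other genes had a median of -0.43 with 20 lower, beside -0.36 with 21 lower for the 24 members. From there to TIMM8B the others had a median of -0.20 and the members one of -0.50. After TIMM8B these medians were -0.11 and -0.64. Outside, the 20 measured genes before USP35 had a median of -0.10 with 13 lower, and the 20 after TRIM29 one of -0.18 with 11 lower. Over all measured genes of chromosome 11 the median was -0.03 before USP35, over 565 genes, and -0.19 after TRIM29, over 66, against 0.06 over the 13132 measured genes outside the interval.

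**Figure D4:**
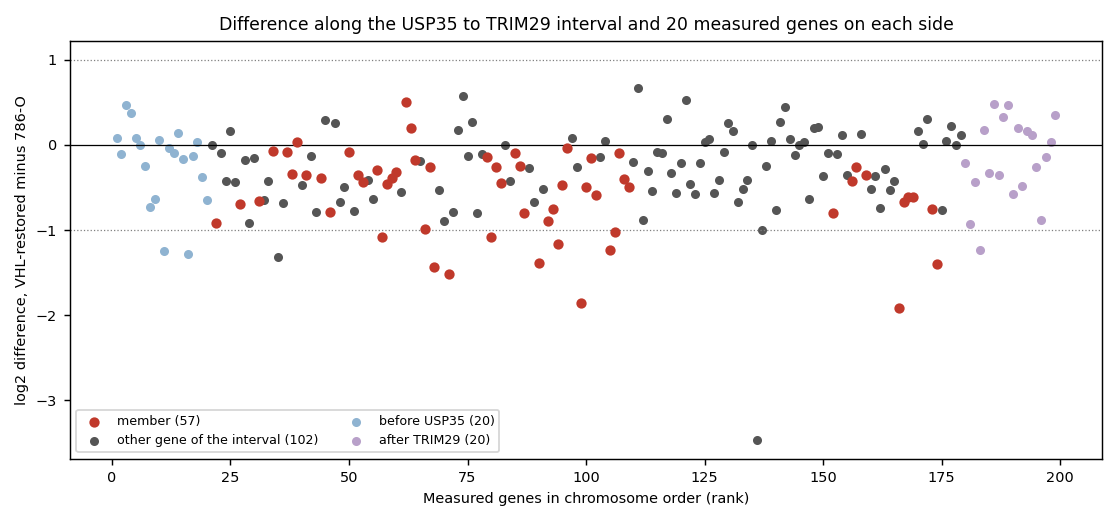
The log2 difference, VHL-restored minus 786-O, of measured genes in chromosome order by rank, with 57 members (red), 102 other genes of the interval (dark grey) and 20 genes on each side (blue and purple); dotted lines mark 2-fold. Red points are nearly all below 0, the dark point at -3.46 is TAGLN, and the genes on each side scatter around medians of -0.10 and -0.18.

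The other genes of the interval were mostly lower at a mean intensity of 50 or more, with similar medians above and below 200, and mostly not lower under 50. At a mean intensity of 200 or more, 37 of 41 other genes of the interval were lower in VHL-restored cells, with a median of -0.43, beside 31 of 31 members with a median of -0.46. Outside the interval 43.4% of 5739 genes at this level were lower. At 50 to 200, 25 of 29 others were lower, with a median of -0.42, beside 17 of 19 members. Outside the interval 44.5% of 4231 genes at 50 to 200 were lower, with a median of 0.03. Under 50, only 6 of 32 others were lower, with a median of 0.12, and outside the interval 33.4% of 3162 genes were, with a median of 0.08. Members under 50 were 7, of which 6 were lower. The limits of 50 and 200 were set after the values were seen, and the pseudocount compresses the differences of dim genes.

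**Figure D5:**
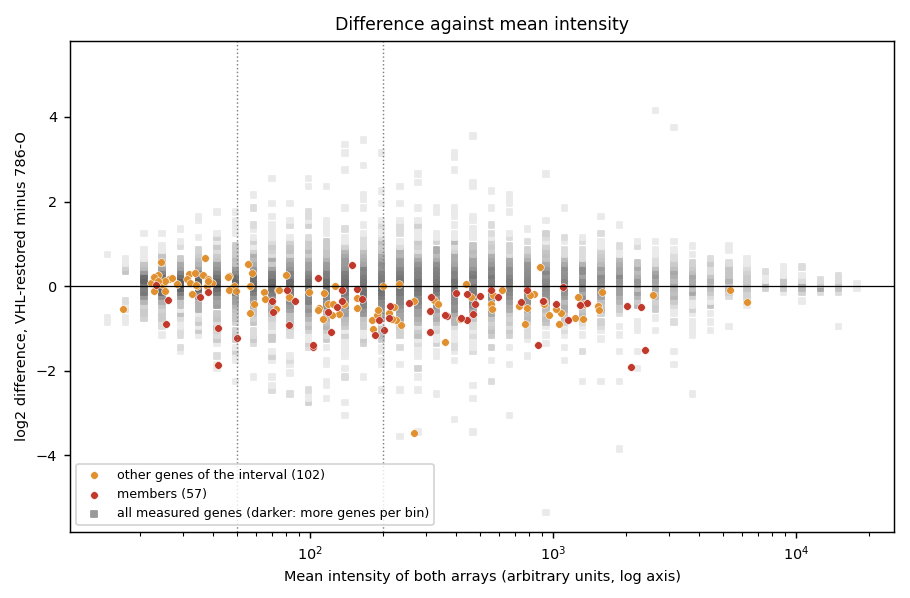
The log2 difference, VHL-restored minus 786-O, against the mean intensity of both arrays in arbitrary units on a log axis, for members (red), other genes of the interval (orange) and all measured genes (grey bins, darker for more genes); dotted lines mark 50 and 200. Right of 200 the coloured points lie below 0 for 68 of 72 genes, and left of 50 for 12 of 39.

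Several members share their start region with a gene on the opposite strand, within 1000 bases. ATM and NPAT, a coactivator of histone genes that works with HINFP, start 429 bases apart, and NPAT was at 98.2 in VHL-restored cells and 165 in 786-O, a difference of -0.67 beside -1.39 for ATM. JRKL and CCDC82 start 101 bases apart and differed by -1.43 and -0.26. DDIAS and PRCP, 92 bases apart, differed by -0.69 and -0.43, and ANKRD49 and MRE11, 140 bases apart, by -0.29 and -0.64. C11orf54 and TAF1D, 177 bases apart, differed by -0.36 and -0.78, AASDHPPT and KBTBD3, 315 bases apart, by -0.44 and -0.27, and CWC15 and KDM4D, 153 bases apart, by -0.39 and -0.32. CEP57 and FAM76B, 232 bases apart, differed by -0.18 and 0.20.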

How the data were processed

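Trizol-extracted total RNA of VHL-restored and 786-O cells was hybridised to 1 array each, per the labels. The deposited numbers are linear intensities, with 1 value for each probe set of an array, judged from their range. The submitters' processing notes name R 2.10 and nothing else. Which background correction, normalization and probe summary were applied is not stated there, and each could compress or shift the differences. Of 54613 probe sets 41091 named a single gene, and 41037 of these took their current symbol by Entrez gene number. Log2 intensities used a pseudocount of 16, and the floor was the pooled median. Gene order came from GRCh38.p14, for order only. Genes of partners and role groups came from written lists. The members, lists and rules were chosen with earlier results of these data known. Named genes were all members, the 6 lowest and 6 highest other genes of the interval, and the 1 or 2 partners per list with the largest difference; markers, and genes that start beside a member, are named as such, and MRE11 is marked. The procedure was tested on simulated data. Alternatives were 8 processing settings and a 1.5-fold limit. Values were computed with pandas 2.3.3 and numpy 2.4.6 under Python 3.11.15, the trend with statsmodels 0.14.6, and figures with matplotlib 3.10.9.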

Additional observations from a re-analysis of the deposited data

How the results depend on the processing

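No paired analysis was possible because there was a single array for either line, and no replicate could be left out. With a pseudocount of 64, 3 members and 146 of all measured genes were at least 2-fold lower in VHL-restored cells. With the median over probe sets, which takes in those below the floor, 3 members and 176 genes were, and the median was -0.33 over members and -0.095 over the other genes of the interval. For the other genes it was -0.021 with no filter on low values and -0.47 when the floor was raised to the 75th percentile. At 1.5-fold, 25 members, 20 other genes of the interval and 871 of all genes were lower. LAYN was at 0.13 over the median of its probe sets, and MCAM at 0.017 on its probe set without a suffix. Of the 8 settings 2, the filters on low values, cannot move a single member. Under the other 6, 322 of 328 values of members kept their sign. Among these 6, the pseudocounts of 1 and 64 change the size of a difference but cannot change its sign. Part of that count was therefore fixed in advance. Of the 11 members at least 2-fold lower, 10 were under 2-fold in at least 1 setting. Among them were H2AX at -0.94, JRKL at -0.67 and ZC3H12C at -0.61 by the median over probe sets. BIRC2 alone was 2-fold in all settings. It has only 1 probe set, without a suffix, so the settings that change the choice of probe sets could not move it. The cause of these changes was otherwise not tested. Signal near the floor limits LAYN, EXPH5, KDM4D and ME3. It also limits MAML2 and CRYAB, which were at 22.8 and 23.5 in VHL-restored cells. Their differences were -1.38 and -1.67 with a pseudocount of 1, and -0.53 and -0.69 with a pseudocount of 64.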

Other observations

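The deposited intensities show a grid, and its effect on the differences was not tested. On 2127 of 54613 probe sets the values of both arrays were equal within 1e-05, among them 4 genes of the interval and no member. Another 1345 probe sets were apart by a multiple of 0.5 within that tolerance. They included 4 members, among them EED, RDX and PPP2R1B, whose differences in intensity, VHL-restored minus 786-O, were -45, -655.5 and -44.5. The step that gave these values is not given in the sources used here.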
